A study of Homo sapiens with 6 samples.

Results

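Semaphorins with their plexin and neuropilin receptors, and ephrins with their Eph receptors, were described in HGC27 cells. This is an established human gastric cancer line. A gene was a member when its symbol named a semaphorin, a plexin, a neuropilin, an EphA or EphB receptor, or an ephrin-A or ephrin-B. The rule reads symbols and no expression values, but the families were picked with earlier results of these data known. Of 39739 gene rows in the deposited tables, 53 were members. They comprised 20 semaphorins, 9 plexins, 2 neuropilins, 9 EphA receptors, 5 EphB receptors, 5 ephrin-A genes and 3 ephrin-B genes. Read by role, 28 of them encode ligands and 25 encode receptors.

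RNA-seq was performed on HGC27-FN1 3′-UTR cells (3 libraries) and on HGC27-control cells (3 libraries). The former carried the *FN1* 3′-UTR, the untranslated end of the fibronectin 1 mRNA, delivered by lentivirus and kept under puromycin selection as a stable line. The labels name the other group only as control, and what vector these cells carried was not given in the sources used here. Both groups were the same cell line, and nothing states that the replicates were separate cultures or infections, so p-values measure only the spread between these libraries. The libraries held between 16357085 and 37037532 reads assigned to genes. *FN1* itself, whose row also covers the coding exons, was 0.780 ± 0.037 RPKM (SD, n = 3) with the *FN1* 3′-UTR and 0.516 ± 0.037 in the control, with a log2 fold change of 0.52 and an adjusted p of 0.0292 (limma, Benjamini-Hochberg). That call did not pass when any 1 of the 6 libraries was left out (adjusted p between 0.0614 and 0.0982).

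Semaphorins are secreted or membrane-bound proteins that steer axons and also act on vessels, epithelia and tumour cells. Plexins carry the signal into the cell through a GTPase-activating domain, and most secreted class 3 semaphorins first bind a neuropilin, which is also a co-receptor for VEGF. Eph receptors are receptor tyrosine kinases that bind ephrins on neighbouring cells. Ephrin-A proteins are held by a lipid anchor and ephrin-B proteins span the membrane and signal backwards into their own cell.

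Levels are given as RPKM, the reads of a gene per kilobase of its exons and per 1000000 reads assigned to genes. Fold changes are for HGC27-FN1 3′-UTR over HGC27-control on the log2(RPKM + 0.1) scale, which understates the change of low genes. A gene was tested when at least 3 libraries had an RPKM of 0.1 or more, and was called at an adjusted p under 0.05 in limma, two-sided, over all 23299 genes tested. Of the 53 members, 49 were tested, 6 were called higher, 7 were called lower and 36 were not called. The called share was 26.5% of tested members, beside 13.0% of all tested genes (5.62% higher and 7.36% lower, or 1310 and 1715 genes, which became 1696 and 1331 with median-ratio scaling) and 18.5% of the 13112 tested protein-coding genes. The median log2 fold change of tested members was -0.10, beside -0.04 over all genes. In 26 of the 49 tested members the 3 values of one group all lay above the 3 values of the other, and 36.0% of all tested genes showed such a separation. An exact permutation test of 3 against 3 libraries cannot give a two-sided p below 0.1, so no such test was used for single genes. With the recovered reads in limma's voom, 8 members were higher and 12 were lower, and 21.9% of all tested genes were called. With an unadjusted P under 0.05 and a log2 fold change beyond 1 in either direction as the call, 1 member passed, *SEMA5A*, beside 2.47% of all genes. That fold is on the log2(RPKM + 0.1) scale. By mean RPKM alone, *SEMA3B* was at 2.14 and *EPHB6* at 0.47 of the control mean. Leaving out HGC27-control replicate 2 left 3 members lower, and leaving out HGC27-FN1 3′-UTR replicate 1 left 4. Over all genes these fits left 470 and 696 lower, beside 1715 in the main fit.

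**Figure D1:**
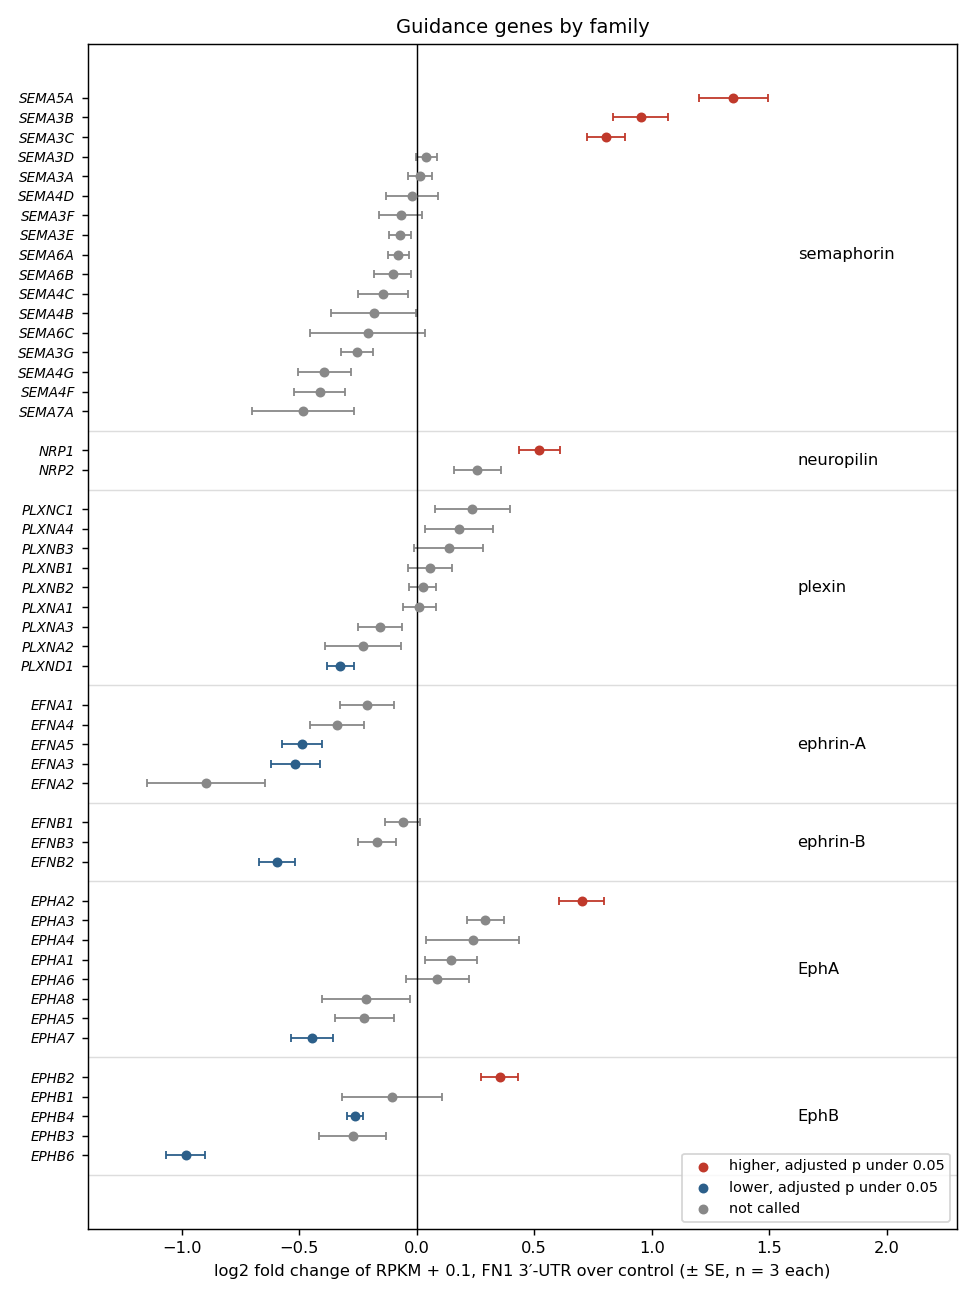
Log2 fold change of RPKM + 0.1, HGC27-FN1 3′-UTR over HGC27-control, for the 49 tested members (points; bars are ± SE, n = 3 libraries each), grouped by family. Red points are the 6 members called higher, blue points the 7 called lower and grey points the 36 not called. All 8 ephrins lie left of 0, as do 13121 of all 23299 tested genes (not shown).

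Among the semaphorins, 3 genes rose and 0 fell out of 17 tested, or 17.6% called, beside 13.0% of all genes and 18.5% of protein-coding genes. The 3 that rose were *SEMA5A*, *SEMA3B* and *SEMA3C*, each at least 1.83-fold higher by the ratio of mean RPKM. For the lower direction, 3 semaphorins had an unadjusted p under 0.05 in limma, a share not counted over all genes. Voom called 3 lower, beside 3066 of all 23299 genes tested.

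*SEMA5A* (chromosome 5, 9035026 to 9546075, reverse strand, GRCh38) encodes a membrane semaphorin with thrombospondin repeats. Its RPKM was 0.556, 0.603 and 0.597 in HGC27-FN1 3′-UTR replicates 1 to 3 and 0.141, 0.182 and 0.188 in HGC27-control replicates 1 to 3. Every HGC27-FN1 3′-UTR library was above every control library, from 499 against 190 reads in all. The log2 fold change was 1.35 ± 0.15 (SE) with an adjusted p of 0.00456, the largest change among the tested members. The ratio of the mean RPKM was 3.44, and the fitted change was 1.76 with voom. An antisense gene on the other strand shares 436 bases of its exons and held 11 and 4 reads in the respective groups.

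*SEMA3B*, a secreted semaphorin known as a tumour suppressor candidate of the short arm of chromosome 3, lies on the forward strand from 50267558 to 50277546. Its RPKM was 1.007, 0.909 and 1.134 in HGC27-FN1 3′-UTR cells and 0.450, 0.484 and 0.492 in control cells. The groups did not overlap, and the log2 fold change was 0.95 ± 0.12 with an adjusted p of 0.00621. Its neighbour *SEMA3F*, 78482 bases away, was 2.07 ± 0.24 against 2.17 ± 0.10 RPKM and was not called.

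*SEMA3C*, a secreted semaphorin that binds both neuropilins, is on the reverse strand of chromosome 7, between 80742538 and 80922359. It had 1.765, 1.685 and 1.568 RPKM in HGC27-FN1 3′-UTR cells and 0.886, 0.942 and 0.913 in control cells. The lowest HGC27-FN1 3′-UTR value was well above the highest control value, with a log2 fold change of 0.81 ± 0.08 and an adjusted p of 0.00342. On the same chromosome, *SEMA3E*, *SEMA3A* and *SEMA3D* follow each other from 83363906 to 85186855 and none was called. The 3 semaphorins that rose were called again in each of the 6 fits without 1 library, with the largest adjusted p at 0.0333, for *SEMA3B*.

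The semaphorins with the highest levels were not called. *SEMA3E*, whose receptor is *PLXND1*, was at 7.37 ± 0.36 against 7.74 ± 0.22 RPKM. *SEMA3D* was at 4.18 against 4.06 RPKM, and *SEMA3A*, the prototype repellent of axons, at 3.09 against 3.06. *SEMA3G* had 2.18 against 2.63 RPKM with groups that did not overlap (adjusted p = 0.0619), and passed at a minimum mean RPKM of 1 (adjusted p = 0.0448) and with voom (0.0200). The membrane-bound *SEMA6A* had 3.35 against 3.54 RPKM, *SEMA4C* 2.32 against 2.56 and *SEMA6B* 1.60 against 1.72. *SEMA4F* and *SEMA4G* were below 1 RPKM and their groups did not overlap, with adjusted p of 0.0542 and 0.0698. Voom called both (adjusted p = 0.00788 and 0.0280), and a pseudocount of 1 also called *SEMA4F* (0.0473). *SEMA4G* shares 22.3% of its exon bases with *MRPL43* on the opposite strand, which held 2304 and 2922 reads, and whether counting used the strand was not given in the sources used here. Summed over the 20 genes, the semaphorins came to 31.8, 31.2 and 31.9 RPKM in HGC27-FN1 3′-UTR libraries and 32.1, 31.7 and 31.7 in control libraries. The sums of both groups overlapped, while 3 members with small shares of that sum rose.

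The 4 untested members were near the limit of detection. For *SEMA4A*, 4 reads came from HGC27-FN1 3′-UTR cells and 10 from control cells, followed by *SEMA5B* 1 and 4, *SEMA6D* 13 and 15, and *EPHA10* 9 and 19. They were fitted only without the filter on low values, where none was called.

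**Figure D2:**
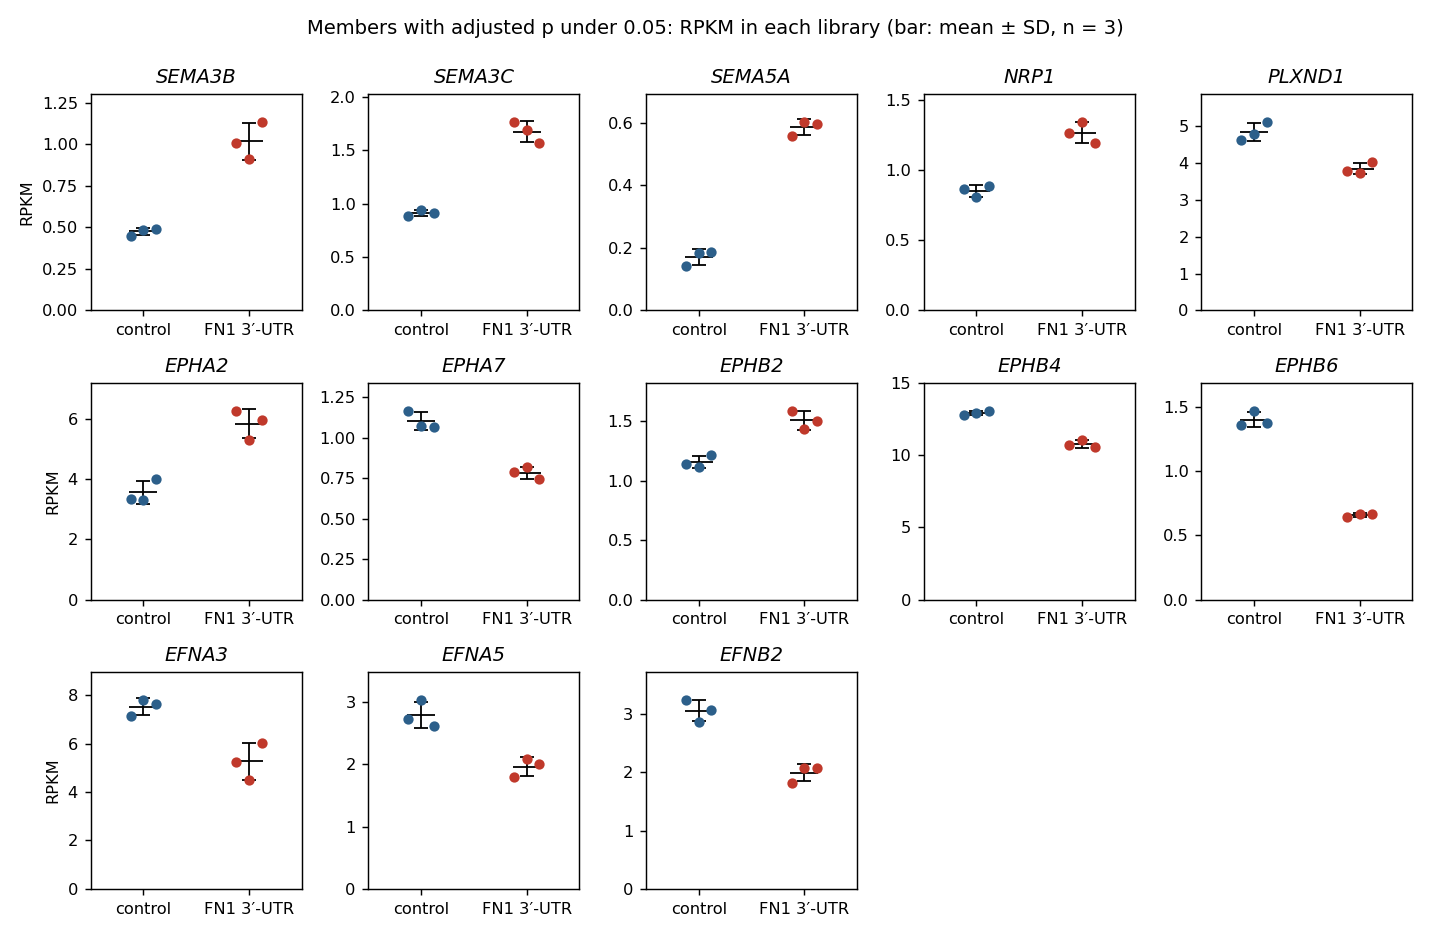
RPKM of the 13 called members in each library (dots; blue, HGC27-control; red, HGC27-FN1 3′-UTR), 1 panel per gene with axes from 0; the bar is the mean ± SD (n = 3). The 13 genes were chosen by the test on these same values. The groups do not overlap in any of the 13 panels, and 36.0% of all tested genes showed such a separation. *SEMA5A* (mean 0.585 against 0.170) and *EPHB6* (0.660 against 1.40) have the largest called change in each direction.

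Of the neuropilins, *NRP1* rose and *NRP2* was not called. *NRP1* had 1.263, 1.343 and 1.195 RPKM in HGC27-FN1 3′-UTR libraries and 0.867, 0.806 and 0.883 in control libraries. The groups did not overlap, with a log2 fold change of 0.52 ± 0.09 and an adjusted p of 0.0160. The call was lost without HGC27-FN1 3′-UTR replicate 1 (adjusted p = 0.0554), without HGC27-FN1 3′-UTR replicate 2 (0.0598) and without HGC27-control replicate 2 (0.0652). It was also lost in limma with the replicate number as a block (0.0695). *NRP2* was at 0.884 ± 0.023 against 0.725 ± 0.059 RPKM with groups that did not overlap (log2 fold change 0.26, adjusted p = 0.145), and voom called it (adjusted p = 0.0140). An antisense gene shares 4.87% of the *NRP1* exon bases and held 302 and 305 reads. The 2 neuropilins summed to 2.12, 2.24 and 2.09 RPKM in HGC27-FN1 3′-UTR cells and 1.52, 1.55 and 1.65 in control cells.

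Of the 9 plexins, 1 fell and 0 rose, and neither an unadjusted p under 0.05 in limma nor voom added a higher plexin (0 and 0). The called share was 11.1%, beside 13.0% of all tested genes and 18.5% of protein-coding genes. *PLXND1*, the receptor of *SEMA3E*, was lower by 0.32 ± 0.06 on the log2 scale with an adjusted p of 0.0176. Its mean was 3.85 ± 0.15 against 4.85 ± 0.25 RPKM. The call was lost without HGC27-FN1 3′-UTR replicate 1 (adjusted p = 0.0633), without HGC27-FN1 3′-UTR replicate 2 (0.0622) and without HGC27-control replicate 2 (0.0658). *PLXNB2*, a receptor of class 4 semaphorins, was the most abundant member at 16.1 ± 1.0 against 15.8 ± 0.7 RPKM, and its groups overlapped. *PLXNA1* was at 5.31 against 5.28 RPKM and *PLXNA3* at 1.05 against 1.18, and *PLXNB1* was just below 1 in both groups (0.983 against 0.940). *PLXNB2* made up 55.2% to 56.3% of the plexin sum in HGC27-FN1 3′-UTR libraries and 52.5% to 54.0% in control libraries. The plexin sum itself was 28.8 ± 1.5 against 29.5 ± 1.4 RPKM, with overlapping groups.

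All 8 ephrins had a lower mean in HGC27-FN1 3′-UTR cells, under both the deposited scaling and median-ratio scaling, and 3 of them passed the test. The called share was 37.5%, beside 13.0% of all tested genes and 18.5% of protein-coding genes. With the deposited scaling, 13121 of all 23299 tested genes also had a negative log2 fold change. No ephrin was called higher, with 0 at an unadjusted p under 0.05 and 0 with voom. The 3 that fell were *EFNB2*, *EFNA3* and *EFNA5*, with a mean RPKM between 0.652 and 0.703 of the control mean.

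*EFNB2*, the ligand of EPHB4 known for marking arterial endothelium, had 1.823, 2.074 and 2.073 RPKM in HGC27-FN1 3′-UTR libraries and 3.232, 2.866 and 3.063 in control libraries. No library of one group reached the other, and the log2 fold change was -0.59 ± 0.08 with an adjusted p of 0.00773. It was called in all 6 fits without 1 library. The other ephrin-B genes were not called: *EFNB1* was at 5.39 against 5.62 RPKM and *EFNB3* at 2.40 against 2.71.

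*EFNA3* had 5.252, 4.504 and 6.027 RPKM in HGC27-FN1 3′-UTR libraries and 7.131, 7.785 and 7.652 in control libraries. The groups did not overlap, but the HGC27-FN1 3′-UTR values were spread widely, and the log2 fold change was -0.52 ± 0.10 with an adjusted p of 0.0267. The call was lost without HGC27-FN1 3′-UTR replicate 1 (adjusted p = 0.0788) and without HGC27-control replicate 1 (0.0558), 2 (0.0933) or 3 (0.0764). It was also lost in limma with the replicate number as a block (0.0627). Another gene row on the same strand shares 853 bases, 44.7% of the exons of *EFNA3*, and 189 bases of *EFNA4*. That row held 485 reads in HGC27-FN1 3′-UTR and 891 in control libraries. How reads in the shared bases were counted was not given in the sources used here, so the reads of *EFNA3* are uncertain there.

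*EFNA5*, the third ephrin that fell, was at 1.96 ± 0.15 against 2.79 ± 0.21 RPKM, lower by 0.49 ± 0.08 on the log2 scale with an adjusted p of 0.0171. Its call was lost without HGC27-FN1 3′-UTR replicate 1 (adjusted p = 0.0530) and without HGC27-control replicate 2 (0.0638). The remaining ephrin-A genes were not called. *EFNA4*, the most abundant, was at 6.45 ± 0.85 against 8.18 ± 0.85 RPKM (adjusted p = 0.106, and 0.00629 with voom), and *EFNA1* at 3.27 ± 0.47 against 3.78 ± 0.30 (0.283). *EFNA2* had a larger but noisier difference, 0.625 ± 0.246 against 1.21 ± 0.19 RPKM (log2 fold change -0.90 ± 0.25, adjusted p = 0.0671). It passed without HGC27-FN1 3′-UTR replicate 1 (adjusted p = 0.0305) and with voom (0.00831). *EFNA4*, *EFNA3* and *EFNA1* lie next to each other on chromosome 1, with 9318 and 39921 bases between them.

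Summed, the ephrin-A genes came to 18.7, 16.1 and 17.9 RPKM in HGC27-FN1 3′-UTR libraries and 21.6, 24.5 and 24.4 in control libraries. The ephrin-B genes came to 9.82, 9.87 and 9.65 against 10.96, 11.3 and 11.8 RPKM. Neither sum overlapped between the groups. These sums are a description and carry no test.

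**Figure D3:**
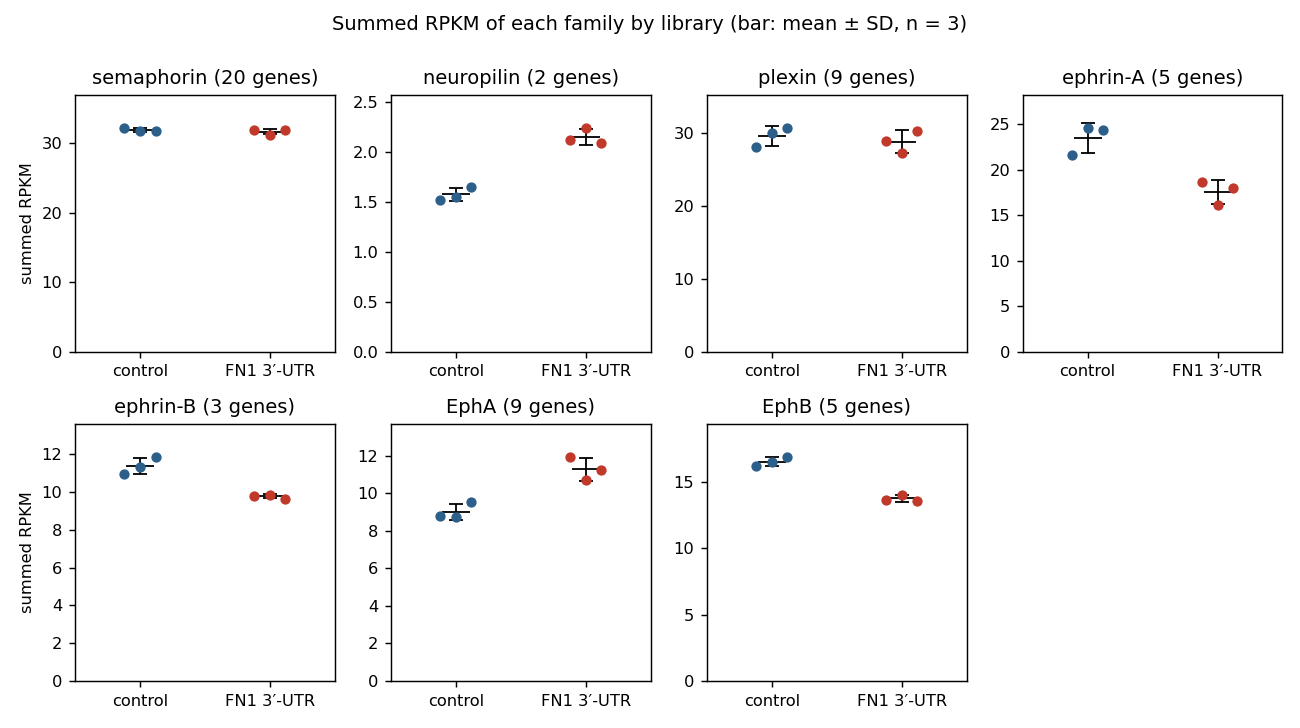
Summed RPKM of each family in each library (dots; blue, HGC27-control; red, HGC27-FN1 3′-UTR), with axes from 0; the bar is the mean ± SD (n = 3). Semaphorin and plexin sums overlap between the groups, neuropilin and EphA sums are higher in HGC27-FN1 3′-UTR cells, and EphB, ephrin-A and ephrin-B sums are lower.

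The Eph receptors changed in both directions, with 2 higher and 3 lower among 13 tested. The called share was 38.5%, beside 13.0% of all tested genes and 18.5% of protein-coding genes. *EPHA2*, a receptor often raised in carcinomas, is on the reverse strand of chromosome 1, between 16124337 and 16156087. It had 6.247, 5.306 and 5.937 RPKM in HGC27-FN1 3′-UTR libraries and 3.338, 3.316 and 4.005 in control libraries. Each HGC27-FN1 3′-UTR library exceeded each control library, with a log2 fold change of 0.70 ± 0.10 and an adjusted p of 0.00860. It was called in all 6 fits without 1 library. *EPHA2* made up 49.6% to 52.8% of the EphA sum in HGC27-FN1 3′-UTR libraries and 37.9% to 42.1% in control libraries, and that sum was 11.9, 10.7 and 11.3 against 8.81, 8.76 and 9.52 RPKM.

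*EPHB6*, an Eph receptor without kinase activity, showed the largest decrease among the tested members that were called. It lies on the forward strand of chromosome 7 from 142855061 to 142871094. Its RPKM was 0.643, 0.669 and 0.669 in HGC27-FN1 3′-UTR libraries and 1.362, 1.469 and 1.379 in control libraries. All 3 HGC27-FN1 3′-UTR values were below every control value, with a log2 fold change of -0.98 ± 0.08 and an adjusted p of 0.00201. *EPHA1*, 519194 bases further along the chromosome, was at 0.795 ± 0.044 against 0.710 ± 0.074 RPKM and was not called.

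*EPHB4*, the receptor of ephrin-B2, was the most abundant Eph receptor at 10.8 ± 0.3 against 12.9 ± 0.1 RPKM. It was lower by 0.26 ± 0.03 on the log2 scale with an adjusted p of 0.00711, a small change over a small spread. *EPHB4* held 77.5% to 78.8% of the EphB sum in HGC27-FN1 3′-UTR libraries and 77.4% to 78.8% in control libraries, and the sum was 13.7, 14.1 and 13.6 against 16.2, 16.5 and 16.9 RPKM. Ligand and receptor of the EFNB2 and EPHB4 pair were thus both lower.

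The other called Eph receptors were less firm. *EPHB2* was higher, at 1.51 ± 0.08 against 1.16 ± 0.05 RPKM, with a log2 fold change of 0.35 ± 0.08 and an adjusted p of 0.0353. *EPHA7* was lower, at 0.783 ± 0.037 against 1.10 ± 0.05 RPKM, with a log2 fold change of -0.45 ± 0.09 and an adjusted p of 0.0257. Neither was called in any of the 6 fits without 1 library, each of which has fewer libraries, with adjusted p from 0.0679 to 0.118 for *EPHB2* and from 0.0642 to 0.0840 for *EPHA7*. *EPHA3* was at 2.03 ± 0.18 against 1.63 ± 0.03 RPKM and was not called (log2 fold change 0.29, adjusted p = 0.0615). It passed with median-ratio scaling (adjusted p = 0.0460), with voom (0.00908) and at a minimum mean RPKM of 1 (0.0464). *EPHB3*, *EPHA5*, *EPHA8*, *EPHA6*, *EPHA4* and *EPHB1* had a mean below 1 RPKM in both groups, and none was called.

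Over all ligands the summed level was 59.0 ± 1.6 RPKM in HGC27-FN1 3′-UTR libraries and 66.7 ± 1.8 in control libraries, without overlap. The semaphorin part of that sum overlapped between the groups (31.6 against 31.8 RPKM). The ephrin-A part (17.6 against 23.5 RPKM) and the ephrin-B part (9.78 against 11.4 RPKM) did not. Over all receptors the summed level was 56.0 ± 1.6 against 56.7 ± 2.1 RPKM, with overlap. Of the tested ligands 5 had a positive and 20 a negative log2 fold change, and of the tested receptors 14 and 10. Over all tested genes 10178 were positive and 13121 negative. With median-ratio scaling the ligand counts were 6 and 19, since *SEMA4D* moved from -0.02 to 0.01, and the receptor counts were the same. These are descriptions, and no difference between ligands and receptors was tested.

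Genes that act with or below these receptors were read from a list of adaptors, GTPase regulators, kinases and co-receptors. Of 70 listed genes 62 were tested, 8 were higher and 7 were lower, or 24.2%, beside 13.0% of all genes and 18.5% of protein-coding genes. *L1CAM*, an adhesion protein that forms a complex with neuropilin-1, rose, with 2.808, 2.995 and 2.966 RPKM in HGC27-FN1 3′-UTR libraries and 1.393, 1.320 and 1.619 in control libraries. The groups were far apart, with a log2 fold change of 0.97 ± 0.09 and an adjusted p of 0.00246. *MICAL2*, an actin-oxidising enzyme of the family that binds plexins, had 0.379, 0.326 and 0.366 against 0.195, 0.156 and 0.166 RPKM. Its log2 fold change was 0.75 ± 0.16 with an adjusted p of 0.0307, and the call was lost in each fit without 1 library.

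*FYN*, a Src-family kinase used by both plexins and ephrin-A, had 0.775, 0.785 and 0.855 RPKM in HGC27-FN1 3′-UTR libraries and 1.589, 1.607 and 1.282 in control libraries. The groups did not overlap, and the log2 fold change was -0.81 ± 0.11 with an adjusted p of 0.00897. The other called genes changed by less than 0.5 on the log2 scale. Higher were *RAP1B*, *VAV3*, *ROCK1*, *ROCK2*, *SDCBP* and *CDC42*, and lower were *DPYSL5*, *TNIK*, *DPYSL2*, *VAV2*, *CHN1* and *NCK1*. With voom 12 genes of the list were higher and 16 lower, beside 2042 and 3066 of all 23299 genes tested. Without HGC27-control replicate 2 the counts were 3 and 3. Without HGC27-FN1 3′-UTR replicate 1 they were 4 and 2, and without HGC27-FN1 3′-UTR replicate 2 they were 4 and 3. Without HGC27-FN1 3′-UTR replicate 3, 4 were lower, and without HGC27-control replicate 3 the counts were 5 and 3. Over all genes the fits without 1 library called 501 to 927 higher and 470 to 1015 lower, beside 1310 and 1715 in the main fit.

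**Figure D4:**
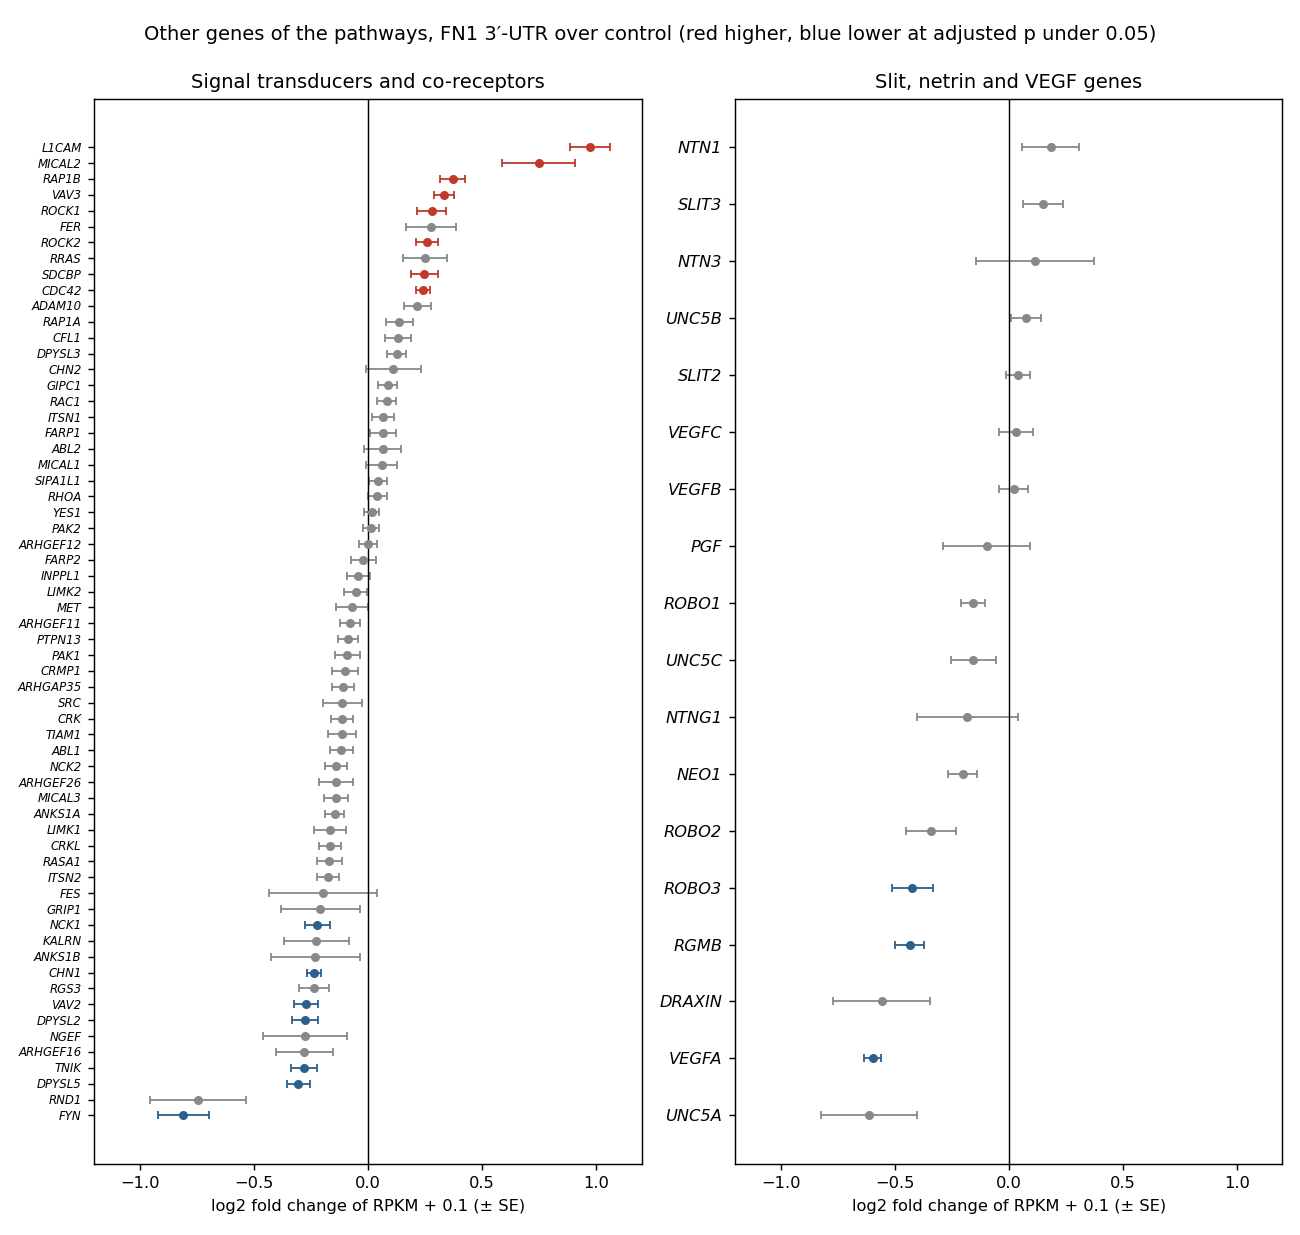
Log2 fold change of RPKM + 0.1, HGC27-FN1 3′-UTR over HGC27-control (points; bars are ± SE, n = 3 each), for the 62 tested signal transducers and co-receptors (left) and the 18 tested Slit, netrin and VEGF genes (right). Red marks genes called higher and blue genes called lower, and *L1CAM* (0.97), *FYN* (-0.81) and *VEGFA* (-0.60) are among the most changed.

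A second list held Slit, netrin and repulsive guidance molecules with their receptors, and the VEGF genes that share neuropilins. Of 31 listed genes 18 were tested, 0 were higher and 3 were lower. That was 16.7%, beside 13.0% of all genes and 18.5% of protein-coding genes. At an unadjusted p under 0.05 in limma 0 were higher and 8 lower, a share not counted over all genes. Voom gave 0 higher and 8 lower, beside 2042 higher and 3066 lower of all 23299 genes tested. *VEGFA*, the vascular growth factor that binds neuropilin-1, had 6.041, 6.004 and 6.037 RPKM in HGC27-FN1 3′-UTR libraries and 9.377, 9.219 and 8.889 in control libraries. The spread within each group was small beside the distance between them, and the log2 fold change was -0.60 ± 0.04 with an adjusted p of 7.4e-04. *RGMB* and *ROBO3* also fell, by 0.43 and 0.42 on the log2 scale with adjusted p of 0.0112 and 0.0303. Without HGC27-control replicate 2, 1 gene of this list was lower, beside 470 of all genes. The VEGF receptors *KDR*, *FLT1* and *FLT4* were not tested, with 0, 13 and 6 reads in HGC27-FN1 3′-UTR libraries and 3, 6 and 12 in control libraries.

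Markers of other cell types were read beside these results. Endothelial markers were near 0, at 0.182 to 0.278 RPKM summed over 7 genes in HGC27-FN1 3′-UTR libraries and 0.0767 to 0.121 in control libraries, with *PECAM1* at 0 reads. Epithelial markers moved with the groups, at 18.2 to 27.0 against 2.59 to 2.99 RPKM summed over 5 genes, led by the keratin *KRT8* (12.2 against 2.15 RPKM, log2 fold change 2.44 ± 0.12, adjusted p = 4.3e-04). Fibroblast markers were at 134 to 137 against 94.6 to 105 RPKM over 6 genes, most of it *COL3A1*. Of these, *COL3A1*, *LUM* and *THY1* were called higher, and *DCN* and *PDGFRB* were not called. *PDGFRA* was lower without a call (1.99 against 2.31 RPKM). Mesenchymal markers overlapped, at 304.7 to 331 against 301 to 339 RPKM over 3 genes, most of it *VIM* (304.2 against 303.1 RPKM). *ZEB1* was not called, and *CDH2* was not tested, with 19 reads in HGC27-FN1 3′-UTR and 18 in control libraries. Neuronal markers (20.4 to 20.7 against 20.1 to 23.1 RPKM over 5 genes) and immune markers (2.90 to 3.18 against 3.11 to 3.61 RPKM over 4 genes) overlapped as well. Most of the neuronal sum was *TUBB3* (19.4 against 20.4 RPKM). *RBFOX3*, *SNAP25* and *SYP* were lower without a call, and *MAP2* was not tested. The part of the epithelial and fibroblast differences in the members' changes was not tested, and fewer cells of a type cannot be told apart from less RNA per cell in bulk libraries.

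The study also asked which miRNAs meet the *FN1* 3′-UTR and followed 4 of them. Their mature sequences (RefSeq, GRCh38.p14) are shown because the capitals, the seed at bases 2 to 8, set the letters searched for in the members.
let-7i-5p: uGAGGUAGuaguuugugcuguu
miR-423-5p: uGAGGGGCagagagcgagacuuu
miR-296-3p: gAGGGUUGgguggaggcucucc
miR-629-5p: uGGGUUUAcguugggagaacu
No seed is shared among the 4. The 7-base complement of each seed was searched on the transcribed strand of 1 GENCODE release 29 3′-UTR per gene, a search added after the expression values were seen. The letters were CTACCTC for let-7i-5p, GCCCCTC for miR-423-5p, CAACCCT for miR-296-3p and TAAACCC for miR-629-5p.

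The let-7i-5p letters stood in 9 of the 49 tested members (18.4%), beside 9.499% of 13044 tested protein-coding genes. Members had longer 3′-UTRs, with a median of 1493 against 1034 bases, and per kilobase the densities were 0.0831 and 0.0631 matches. Of the 9, 0 were called higher in limma, 1 was called lower and 8 were not called. At an unadjusted p under 0.05 in limma 0 were higher and 3 lower, a share not counted over all genes. Voom called 0 and 3, beside 2042 and 3066 of all 23299 genes tested. The one that fell was *PLXND1*, and *SEMA4F*, *SEMA4G* and *SEMA4C* had not passed the test. Over the 1239 protein-coding genes with these letters, 70 were higher and 135 lower. *PLXNC1*, a receptor of the GPI-anchored semaphorin *SEMA7A*, was also not called, with a log2 fold change of 0.24. The matches of these 5 genes, those of the 9 that are followed by an A, are shown with the matched letters in capitals.
PLXND1, chr3:129555899-129555920, reverse strand: ccagaaactCTACCTCatccac
SEMA4F, chr2:74681982-74682003, forward strand: taataaaacCTACCTCagggtt
SEMA4G, chr10:100985271-100985292, forward strand: acccctgtcCTACCTCaccggg
SEMA4C, chr2:96860547-96860568, reverse strand: aggcaccagCTACCTCagggac
PLXNC1, chr12:94307249-94307270, forward strand: atttctaagCTACCTCactgag

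The median log2 fold change was -0.14 for the 9 tested members with these letters and -0.09 for those without, and -0.05 and -0.04 over protein-coding genes with and without them. The 3 semaphorins that rose, *SEMA5A*, *SEMA3B* and *SEMA3C*, did not hold the let-7i-5p letters in the 3′-UTR searched, nor did *EPHA2* or *NRP1*.

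The miR-423-5p letters were the most frequent, in 16 of 49 tested members (32.7%) beside 14.7% of protein-coding genes, or 0.194 against 0.116 matches per kilobase. Of these 16, 1 was higher (*NRP1*), 4 were lower (*EPHB4*, *EFNB2*, *EFNA3* and *PLXND1*) and 11 were not called. Over the 1916 protein-coding genes with the letters, 127 were higher and 293 lower. The match of the most abundant of the 5 is shown.
EPHB4, chr7:100802968-100802989, reverse strand: cttgtaaatGCCCCTCccccag
The miR-296-3p letters stood in 5 tested members (10.2%) beside 8.17% of protein-coding genes. Of these 5, 1 was higher, 1 was lower and 3 were not called, and of 1065 protein-coding genes with the letters 70 were higher and 130 lower. The match in *SEMA5A*, the one that was higher, is shown.
SEMA5A, chr5:9035270-9035291, reverse strand: tctgtatctCAACCCTattcat
The miR-629-5p letters stood in 2 tested members, *EPHB1* and *SEMA6A* (4.08% beside 6.94%), neither of them called. A match describes letters only, and whether any of these miRNAs bound there was not tested.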

How the data were processed

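RNA-seq of 6 libraries was analysed, 3 per group, grouped by the sample labels. The authors prepared stranded mRNA libraries and deposited 1 RPKM table per library. The submitters' processing notes name Trimmomatic 0.36, STAR 2.5.3a, featureCounts, Subread 1.5.1 and GRCh38. The annotation release and the strand setting of counting were not given in the sources used here. RPKM times gene length gave whole reads for 100% of values (tolerance 0.01 read), and these reads set the depth of each library. Libraries of 1 group differed by more than sampling noise (chi-square per gene 2.67 to 6.19).

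Genes reaching an RPKM of 0.1 in 3 libraries were fitted as log2(RPKM + 0.1) with limma 3.58.1 in R 4.3.3, with group as the only term, a variance trend and Benjamini-Hochberg adjustment over all genes tested. Fits were tested on simulated counts with a fixed dispersion. Changes were planted only in genes with a mean above 1 RPKM, so changes in lower genes were not covered. Called members were named with their test, those at an absolute log2 fold change of 0.5 or more with every library, uncalled members at a mean RPKM of 1 or more in either group with both means, and untested members with their reads. Other uncalled members were named after their values were seen. List genes were named with values at the same 0.5 threshold, and the other called ones were added. The members and lists were chosen with earlier results of these data known. Alternatives were the pseudocount, the filter, scaling, voom, a replicate block, each library left out and the call criteria. For the seed search, each gene was represented by its best APPRIS principal transcript, then by the longest coding sequence. Protein sequences were not used here. A further seed match is not reported here. The software was Python 3.11.15 (pandas 2.3.3, numpy 2.4.6, matplotlib 3.10.9 for figures).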

Additional observations from a re-analysis of the deposited data

How the results depend on the processing

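The counts of 6 members higher and 7 lower were within 1.5 times of these under both other pseudocounts, both other filters, median-ratio scaling and the replicate block (4 higher and 5 lower). The block lost the calls of *NRP1*, *EPHB2*, *EFNA3* and *EPHA7* (limma adjusted p = 0.0695, 0.0944, 0.0627 and 0.0836). With voom on the recovered reads 12 members, 16 signal transducers and 8 Slit, netrin and VEGF genes were lower. Over all 23299 genes tested, voom called 2042 higher and 3066 lower. With a log2 fold change of RPKM + 0.1 beyond 1 and P under 0.05, 1 member was higher and 0 were lower. With that call the signal transducers gave 0 and 0, and the Slit, netrin and VEGF genes 0 lower. With the replicate block 5 signal transducers were higher, 3 were lower and 1 Slit, netrin or VEGF gene was lower, and without the filter 5 signal transducers were higher. Over all genes the block called 564 higher and 598 lower, and the fit without the filter 1067 and 1296. Leaving out 1 library gave 4 to 5 members higher, 3 to 6 members lower, 3 to 6 signal transducers higher, 2 to 5 lower and 1 to 3 Slit, netrin and VEGF genes lower. Over all genes the same fits called 501 to 927 higher and 470 to 1015 lower. The groups share replicate numbers, and the labels do not say whether a number marks a shared batch. Deviations of same-numbered libraries correlated by 0.00244, 0.0211 and 0.0103. Those of differently numbered libraries correlated by -0.0195 to 0.00838. Of the 13 called members 7 kept an adjusted p under 0.05 in every alternative fit that tested them (a minimum mean RPKM of 1 left out *SEMA5A* and *SEMA3B*), while the fold criterion kept only *SEMA5A*, no called member's value reversed, and 7 uncalled members passed under at least 1 alternative. Over all genes the split was 1310 higher and 1715 lower, and 1696 and 1331 with median-ratio scaling, with medians of -0.04 and -0.003 on the log2 scale. The cause of these differences was not tested. Members with under 0.1 RPKM could not be assessed at this depth.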
